A study of Arabidopsis thaliana with 4 samples.

Results

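The 38 histone genes described here code for the proteins around which DNA is wrapped. They were taken by locus identifier from a list that spans H3.1 (5 genes), H3.3 (3), H4 (8), H2A (4), H2A.Z (3), H2A.X (2), H2A.W (2), H2B (8) and the linker histone H1 (3), out of 25665 loci with a probe on the array. Each of the 38 had 1 probe, which was well above background in both genotypes on 4 of 4 arrays and carried 0 outlier flags, so all 38 were among the 19246 genes tested. The study set the ron3 mutant of Arabidopsis thaliana against the accession Ler, its control, in shoot apices, using 4 Agilent arrays read in a pair of dyes and lettered a to d. Plants were grown in vitro under LD to growth stage 1.02. Both genotypes were hybridised to every array: ron3 was labelled with Cy5 on arrays a and c, and with Cy3 on arrays b and d. Biological replicates and dye swaps are named in the labels, but no array is tied to an RNA extract, so the p-values measure the spread between these 4 arrays, part of which may be technical.

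A nucleosome holds a pair each of H2A, H2B, H3 and H4, and H1 binds the DNA where it enters and leaves. Most histone genes are switched on when DNA is copied in S phase, and H3.1 is loaded onto DNA at that time. H3.3 is loaded throughout the cell cycle, largely at transcribed genes, and its genes do not depend on replication. H2A.Z sits near transcription starts and is swapped in by a remodelling complex, H2A.X is phosphorylated at DNA breaks, and H2A.W marks heterochromatin in plants. Plant histone messages carry a poly(A) tail, unlike those of S phase in animals. Several classes consist of near-identical copies, so that 1 probe may catch RNA of more than 1 gene, and values of single copies are uncertain.

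Most histone genes were lower in ron3. Of the 38, 31 fell and 3 rose (limma, adjusted p below 0.05), while 4 did not pass. That is 81.6% lower, beside 32.8% of all genes tested, and 7.89% higher, beside 37.0% of all genes tested (69.8% of all genes passed in either direction). The median log2 ratio of ron3 over Ler was −0.40 for the histone genes and 0.02 for all genes tested. The falls were mostly shallow: 7 of the 38, or 18.4%, were at least 1.5-fold lower, beside 9.18% of all genes tested. None of the 3 rises reached 1.5-fold (0 genes, beside 12.6% of all genes tested). On the 4 arrays the median over the 38 genes was −0.33, −0.38, −0.40 and −0.47, so the shift had the same sign on each. In 31 genes the ratio was below 0 on all 4 arrays (35.4% of all genes tested) and in 3 it was above 0 on all 4 (38.8%). In bulk tissue, fewer cells that make histones and less histone RNA per cell cannot be told apart.

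**Figure D1:**
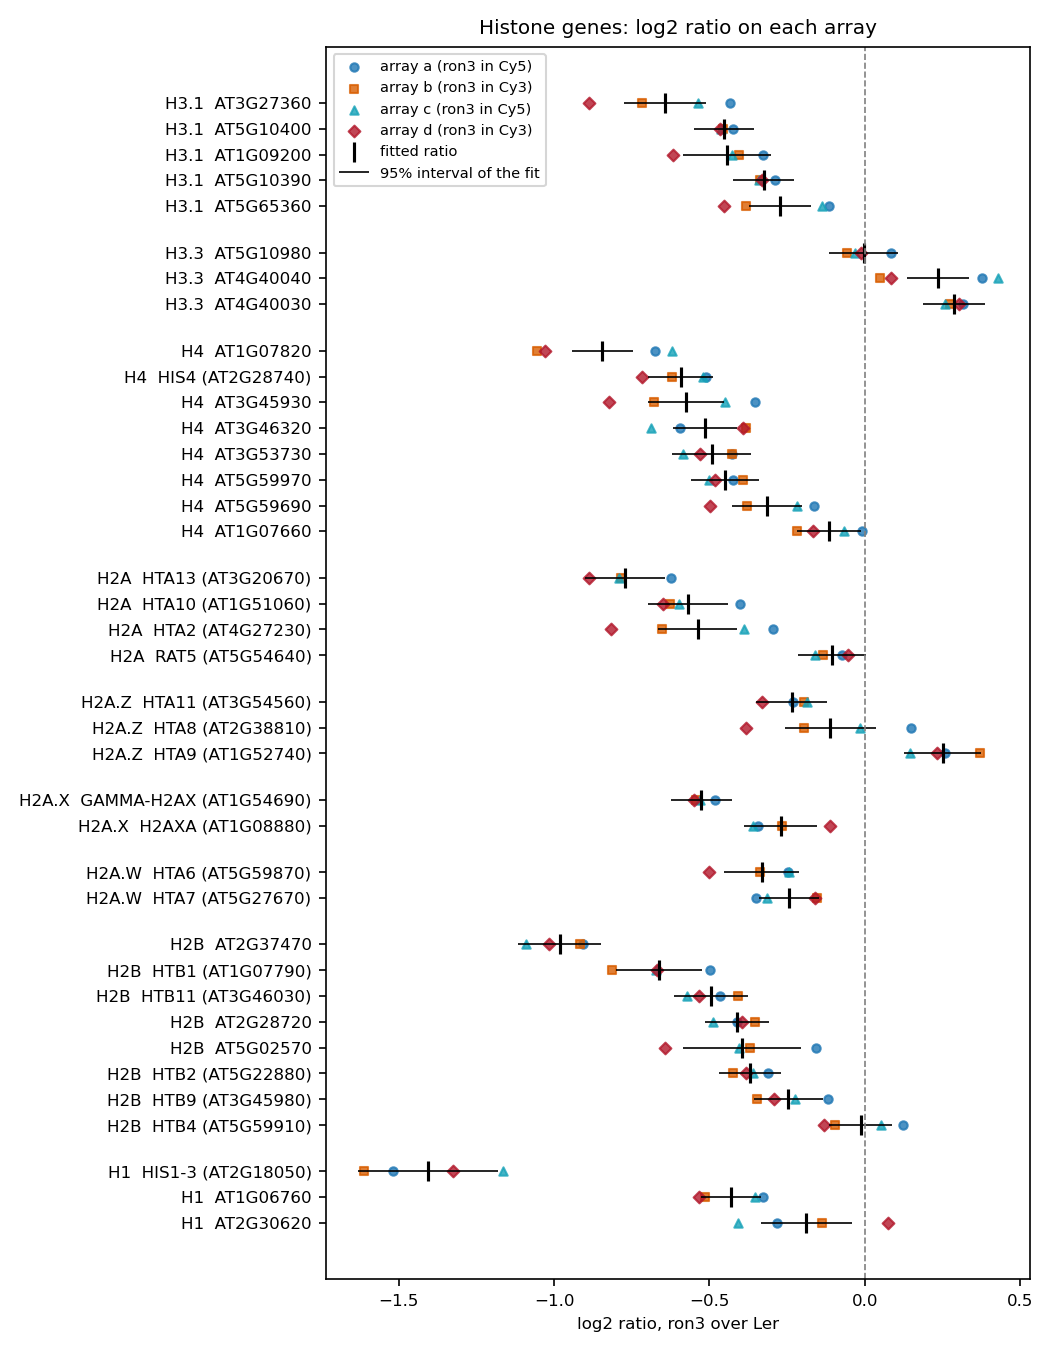
Log2 ratio of ron3 over Ler (x axis) for each of the 38 histone genes (rows, by class). Coloured symbols are the 4 arrays, the black tick is the fitted ratio and the black line its 95% interval; H3.1 and H4 lie left of 0 on every array, whereas 2 of the 3 H3.3 genes and HTA9 lie right of it.

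Histone probes were bright, with a median at percentile 92.6 of signal among the genes tested. Among the 4812 brightest genes tested 37.9% were lower and 37.5% higher. Of the 30 histone genes among these, 25 fell and 3 rose. Across the 38 genes, the ratio and the brightness correlated at r = 0.158, a description over genes that share arrays and in part sequence.

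H3.1, the replication-coupled form of H3, was lower at all 5 of its genes, with a median of −0.44. The largest fall was at AT3G27360. Its normalised log2 intensity was 11.16, 10.96, 11.04 and 10.63 in ron3 on arrays a to d, against 11.59, 11.68, 11.57 and 11.52 in Ler. The 4 ron3 values all lay below the 4 Ler values. AT3G27360 was 1.56-fold lower, at −0.64 ± 0.20 on the log2 scale (SD, n = 4; limma, adjusted p = 0.000682). AT5G10400 and AT5G10390, which are adjacent in the reference, stood at −0.45 ± 0.02 and −0.32 ± 0.02. AT1G09200 stood at −0.44 ± 0.12 and AT5G65360 at −0.27 ± 0.17. In ron3 AT1G09200 had levels of 13.97, 13.56, 13.74 and 13.15, against 14.30, 13.97, 14.16 and 13.76 in Ler: these overlap between arrays, but ron3 was lower within each.

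At H3.3, the replication-independent form, the listed genes did not share the fall: 0 of the 3 fell and 2 rose. Histone loci outside the list, given below, are not in this count. Of 6 such loci tested 5 fell, AT1G75600 (HTR14) among them at −0.32 ± 0.05. AT4G40030 had levels of 14.19, 14.14, 14.18 and 14.30 in ron3, against 13.88, 13.87, 13.92 and 13.99 in Ler. Every ron3 value lay above every Ler value, and the rise of 0.29 ± 0.03 on the log2 scale (1.22-fold; limma, adjusted p = 0.00275) was nearly the same on each array. Its adjacent gene AT4G40040 rose by 0.23 ± 0.20 (adjusted p = 0.00515, limma), with ratios of 0.38, 0.05, 0.43 and 0.08 on arrays a to d. The high pair, a and c, are the arrays with ron3 in Cy5, and the call ended under median centring (0.20, adjusted p = 0.0526, limma). AT5G10980 stood at 0.00, with a 95% interval of −0.11 to 0.11, which leaves out changes of the size seen at H3.1 (AT5G65360, the smallest, at −0.27).

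The contrast between the H3 forms was present on each array. Every listed H3.1 gene was below every listed H3.3 gene on all 4. On arrays a to d, the highest H3.1 ratio was −0.12, −0.34, −0.14 and −0.33, and the lowest H3.3 ratio 0.08, −0.06, −0.03 and −0.01. The class medians differed by −0.64, −0.45, −0.69 and −0.55. The classes were compared with results known, so these differences are given without a test.

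H4, the partner of H3 in the nucleosome core, fell at 8 of 8 genes, with a median of −0.50. AT1G07820 fell most. Its levels were 11.51, 11.32, 11.59 and 11.38 in ron3, against 12.18, 12.37, 12.21 and 12.41 in Ler. The groups did not overlap, and the log2 ratio was −0.84 ± 0.23 (SD, n = 4; 1.80-fold lower; limma, adjusted p = 0.000276). HIS4, at −0.59 ± 0.10, AT3G45930, at −0.58 ± 0.21, AT3G46320, at −0.51 ± 0.15, and AT3G53730, at −0.49 ± 0.08, followed. AT5G59970 stood at −0.45 ± 0.05 and AT5G59690 at −0.31 ± 0.15. The shallowest, AT1G07660, had a log2 ratio of −0.12 (limma, adjusted p = 0.0488), a call that ended under 9 of the 14 alternative settings, among them the loss of any 1 array (−0.13 to −0.10, adjusted p 0.0716 to 0.239). Genes of this 1 histone thus ranged from 1.08-fold to 1.80-fold lower.

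Of the 4 genes of canonical H2A, 3 fell (median −0.55). HTA13 had levels of 13.20, 13.09, 13.04 and 12.91 in ron3, against 13.82, 13.87, 13.83 and 13.80 in Ler. All ron3 values lay below all Ler values, and the fall was 1.71-fold, at −0.77 ± 0.11 (SD, n = 4; limma, adjusted p = 0.000474). HTA10 and HTA2 followed at −0.57 ± 0.11 and −0.54 ± 0.24. RAT5, a gene needed for root transformation by Agrobacterium, was the dim member of the class, at brightness percentile 14.1. Its ratio was −0.11, with an interval of −0.22 to 0.00 (limma, adjusted p = 0.0727). With the deposited log ratio of Feature Extraction, the scanner software, it was −0.34 and passed (adjusted p = 0.0129, limma).

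H2B fell at 7 of 8 genes (median −0.40), and AT2G37470 had the second largest fall of all 38 genes. Its levels were 13.24, 13.08, 12.92 and 12.86 in ron3, against 14.14, 14.00, 14.01 and 13.88 in Ler. The gap to the Ler values was wide on every array, and the log2 ratio was −0.98 ± 0.09 (SD, n = 4; 1.98-fold lower; limma, adjusted p = 0.000344). Of all genes tested 2.19% had a lower ratio. HTB1 stood at −0.66 ± 0.13, HTB11 at −0.49 ± 0.07, AT2G28720 at −0.41 ± 0.06 and HTB2 at −0.37 ± 0.05. The dim members AT5G02570 and HTB9 stood at −0.39 ± 0.20 and −0.25 ± 0.10. With the log ratio of Feature Extraction they stood at −0.68 and −0.65, over 1.5 times as far below 0, and the call of HTB9 ended without array c (−0.22, adjusted p = 0.0518, limma). HTB4 did not pass, at −0.01, with an interval of −0.12 to 0.09 (limma, adjusted p = 0.771). Its ratios were 0.12, −0.10, 0.05 and −0.13 on arrays a to d, above 0 on the arrays with ron3 in Cy5 and below 0 on the others.

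**Figure D2:**
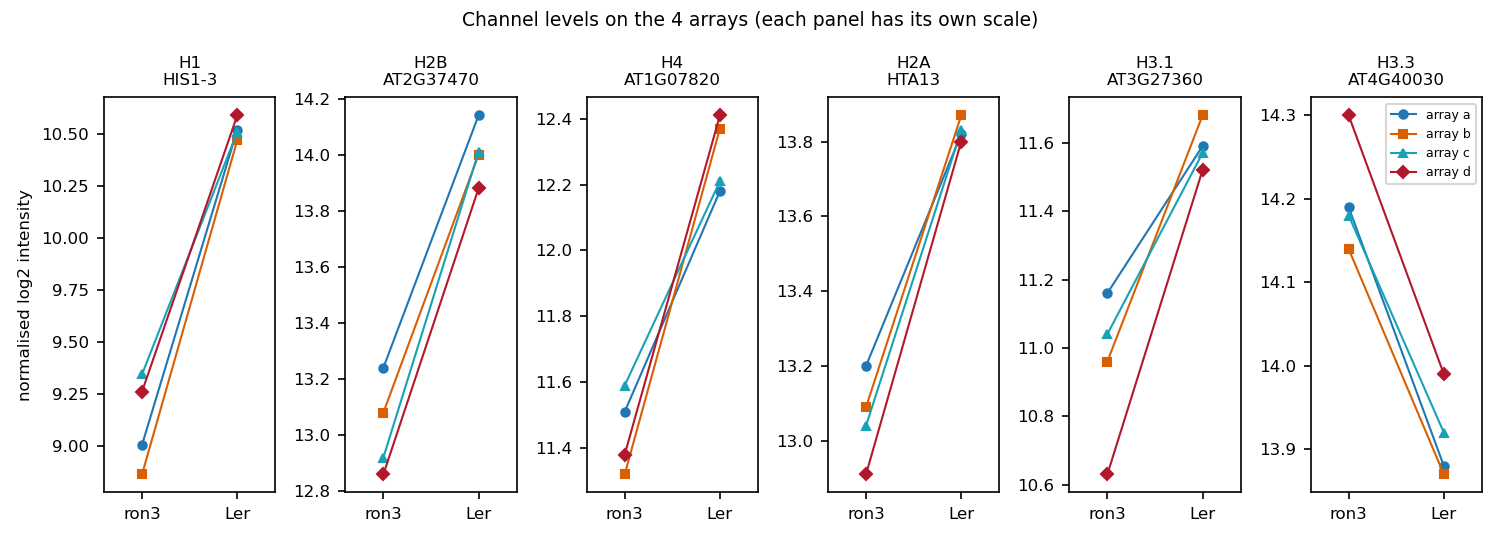
Normalised log2 intensity (y axis, a separate scale in each panel) of 6 histone genes in ron3 and in Ler. Lines join both channels of 1 array; in the first 5 panels each ron3 value is below each Ler value, and in AT4G40030 each is above.

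The H2A variants differed among themselves. H2A.Z went both ways: HTA9 rose by 0.25 ± 0.09 (SD, n = 4; limma, adjusted p = 0.00834), HTA11 fell by 0.24 ± 0.07 (adjusted p = 0.00803, limma), and HTA8 stood at −0.11. HTA9 had levels of 11.80, 11.95, 11.92 and 11.39 in ron3, against 11.54, 11.58, 11.77 and 11.16 in Ler. Both channels were lowest on array d, so that levels overlapped across arrays, while ron3 was higher within each of the 4. The calls of both ended without array a (HTA9 0.22, adjusted p = 0.0615; HTA11 −0.23, adjusted p = 0.0603, limma), and that of HTA11 also under median centring (−0.17, adjusted p = 0.0527). HTA8 had ratios of 0.15, −0.20, −0.02 and −0.38, with no common sign, and an interval of −0.26 to 0.04. It passed, at −0.27, when the software's deposited ratio was used (limma, adjusted p = 0.027).

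The listed H2A.X and H2A.W genes followed the canonical genes in sign, with 4 of 4 lower. This count leaves out the histone loci outside the list, given below. Of 6 such loci tested 5 fell, and HTA12 did not (0.11 ± 0.14; limma, adjusted p = 0.0812). GAMMA-H2AX had levels of 10.51, 10.31, 10.36 and 10.43 in ron3, against 11.00, 10.85, 10.89 and 10.98 in Ler. The groups did not overlap, and the log2 ratio was −0.53 ± 0.03 (SD, n = 4; limma, adjusted p = 0.000563). The other H2A.X gene, H2AXA, was shallower at −0.27 ± 0.11. HTA6 and HTA7, which code for H2A.W, stood at −0.33 ± 0.12 and −0.24 ± 0.10. The call of HTA7 ended under median centring (−0.18, adjusted p = 0.0609, limma).

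The largest change of any histone gene was that of HIS1-3, the linker histone whose transcript is known to be induced by drought and abscisic acid. Its levels were 9.01, 8.86, 9.34 and 9.26 in ron3, against 10.52, 10.47, 10.51 and 10.59 in Ler. Every Ler value was more than 1 log2 unit above every ron3 value. HIS1-3 was 2.65-fold lower, at −1.40 ± 0.20 on the log2 scale (SD, n = 4; limma, adjusted p = 0.000429), and 0.686% of all genes tested had a lower one. AT1G06760, a main H1 gene, fell by 0.43 ± 0.11 (adjusted p = 0.000833, limma). AT2G30620 stood at −0.19 ± 0.21 (adjusted p = 0.0338, limma), with ratios of −0.28, −0.14, −0.41 and 0.08 on arrays a to d, and its call ended under 6 of the 14 alternatives, among them the loss of array a, b or c (−0.22, −0.13 and −0.16; adjusted p 0.0853, 0.0811 and 0.166, limma).

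Over all 38 genes, the ron3 levels lay wholly below the Ler levels in 25 (65.8%, beside 26.1% of all genes tested) and wholly above them in 2 (28.8% of all genes tested), both H3.3. Histone genes that lie close together in the reference differed by varying amounts. In fitted log2 ratio the adjacent H3.3 pair differed by 0.05 and the adjacent H3.1 pair by 0.13. HTB4 and the H4 gene AT5G59970, with 5 coding loci between them, differed by 0.44, and HTB4 and HTA6, with 4 between them, by 0.32.

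The dye effect of the probe was visible for part of the genes. It had an unadjusted p below 0.05 at 10 of the 38 (26.3%, beside 11.5% of all genes tested), and passed adjustment for 0 genes of the array (limma, 2208 genes at an unadjusted p below 0.05). Of these 10, 4 coded for H4 and 2 for H3.1. AT1G07820 averaged −0.65 with ron3 in Cy5 and −1.04 with ron3 in Cy3, and HTA2 averaged −0.34 and −0.73 in the same order. In both the fall was present in either orientation. The SDs printed here hold this dye effect, whereas the p-values come from a fit that has removed it.

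**Figure D3:**
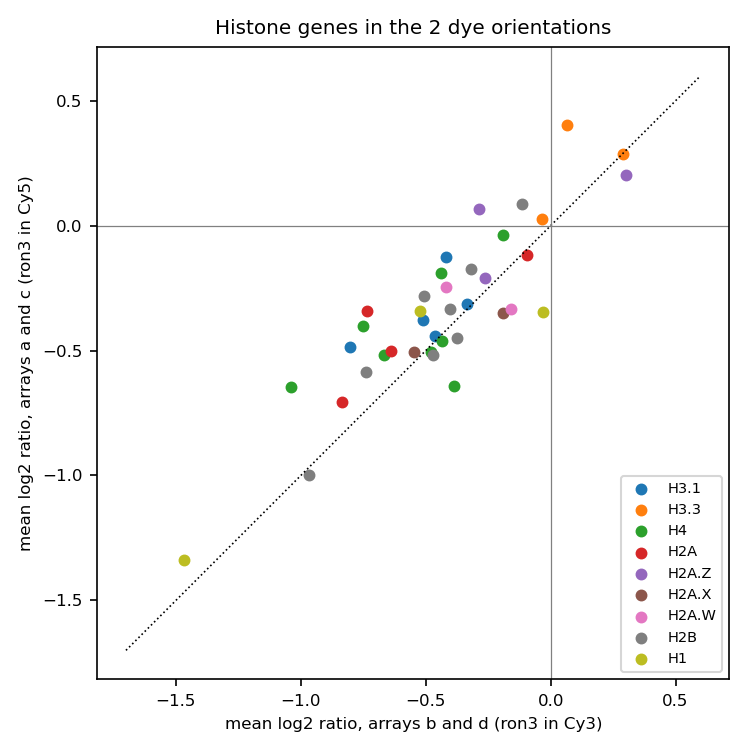
Mean log2 ratio of ron3 over Ler on arrays a and c (y axis, ron3 in Cy5) against that on arrays b and d (x axis, ron3 in Cy3) for the 38 histone genes, coloured by class. The dotted line marks equal values; AT1G07820, at −0.65 and −1.04, is among the genes farthest from it.

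Genes that act with histones were examined from lists written down by locus. DNA replication genes were lower as well: 15 of 16 fell and 0 rose (median −0.42), beside 32.8% lower and 37.0% higher among all genes tested. RNR1, the large subunit of ribonucleotide reductase, stood at −0.74 ± 0.09, CDC6, a licensing factor, at −0.70 ± 0.06, the sliding clamp PCNA1 at −0.59 ± 0.19 and ICU2, a polymerase alpha subunit, at −0.57 ± 0.16 (SD, n = 4). Mitotic genes, which mark dividing cells, fell at 11 of 11 (median −0.62; 32.8% of all genes tested), with CDC20.1 and CDC20.2, activators of the anaphase-promoting complex, at −0.93 ± 0.10 and −0.68 ± 0.12, the cytokinesis kinesin HIK at −0.85 ± 0.11, and the B-type cyclin CYC1BAT at −0.73 ± 0.11. The summed intensity of the 11 was 14879 to 18320 in ron3 and 26989 to 28046 in Ler. These markers thus moved with the histone genes, and their part in the histone result was not tested.

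Histone chaperones and exchange factors were less uniform, with 8 of 16 lower and 3 higher (median −0.18), beside 32.8% lower and 37.0% higher among all genes tested. FAS1, a subunit of the chaperone CAF-1 that loads H3.1 behind the replication fork, fell by 0.42 ± 0.15, and ASF1B, a chaperone of H3 and H4, fell by 0.39 ± 0.08. The other CAF-1 subunits, named after their values were seen, did not fall: FAS2 rose by 0.13 ± 0.03 (limma, adjusted p = 0.0317), and MSI1, at 0.13 ± 0.12, did not pass (adjusted p = 0.0542, limma). The remaining rises of the list, also named after their values were seen, were HIRA, a chaperone of H3.3, at 0.16 ± 0.16 (adjusted p = 0.0417, limma) and the chaperone NRP1 at 0.22 ± 0.11 (adjusted p = 0.0188, limma). ARP6 and SEF, both of the complex that swaps in H2A.Z, stood at −0.55 ± 0.07 and −0.35 ± 0.10. Of 8 endocycle genes 5 fell and 2 rose (median −0.14), against the same shares of all genes. LGO, an inhibitor that promotes the endocycle, rose by 0.59 ± 0.08, and CCS52A2, another activator of the anaphase-promoting complex, by 0.36 ± 0.11. DEL1, an inhibitor of endocycle onset, fell by 0.26 ± 0.10 and TOP6B, a topoisomerase subunit, by 0.33 ± 0.03. The remaining falls, named after their values were seen, were RHL2 at −0.19 ± 0.09, CCS52A1 at −0.15 ± 0.08 and RHL1 at −0.13 ± 0.04. SIM, at 0.06 ± 0.14, did not pass. Of 10 further histone loci 6 were tested, and 5 fell and 0 rose (median −0.30), beside 32.8% lower and 37.0% higher among all genes tested. Among them AT3G53650 stood at −0.67 ± 0.09, AT3G09480 at −0.41 ± 0.05, AT1G75600 (HTR14) at −0.32 ± 0.05 and HTR11 at −0.29 ± 0.08. The tested locus that did not fall, HTA12, stood at 0.11 ± 0.14 (limma, adjusted p = 0.0812). These loci were not sorted into the classes above, so the class counts leave them out.

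**Figure D4:**
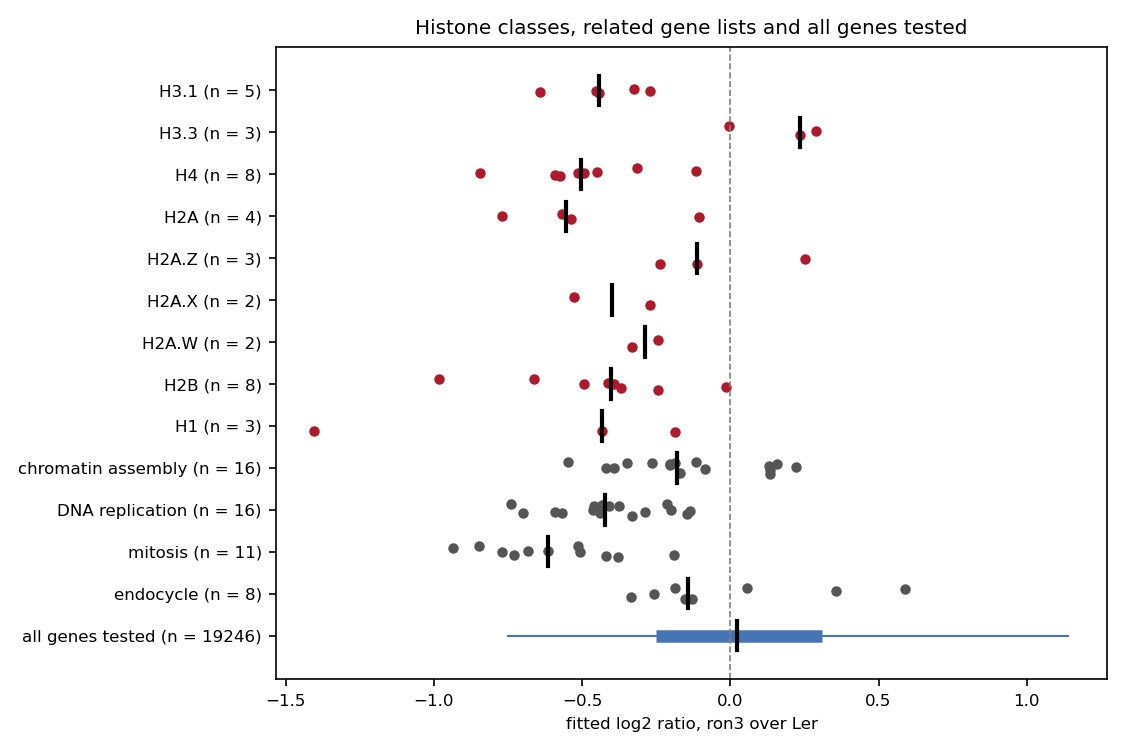
Fitted log2 ratio of ron3 over Ler (x axis) for single genes (points) of the histone classes (red) and related lists (grey), with medians as black ticks. The blue bar for all 19246 genes tested spans percentiles 25 to 75 (−0.25 to 0.31) and the thin line percentiles 5 to 95 (−0.75 to 1.14); H3.3 is the one histone class with a median above 0.

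Checks of the samples bear on these values. RON3, taken from general knowledge to be the gene the reference lists as SIC, was lower in ron3 at −2.30 ± 0.08 (SD, n = 4; limma, adjusted p = 0.000148). Its probe was not placed relative to the lesion. Of the gene probes, 55.5% to 59.5% were well above background in ron3 and 54.2% to 57.0% in Ler, and array d was the dimmest in Cy5 (median 148, against 194.5 to 222). Of 11 shoot meristem markers 9 were tested. STM and CUC3 were higher, at 0.40 ± 0.12 and 0.29 ± 0.10, and ANT and CUC2 lower, at −0.83 ± 0.12 and −0.27 ± 0.08. In all there were 4 rises and 4 falls, beside 37.0% higher and 32.8% lower among all genes tested. WUS and CLV3, the defining genes of the organising centre and the stem cells, did not pass the signal filter. Photosynthetic leaf markers fell at 6 of 6, beside 32.8% of all genes tested. Their summed intensity was 319466 to 373074 in ron3 and 451669 to 551795 in Ler. In 5 of the 6 the ratio was below 0 on all 4 arrays. A dye effect had an unadjusted p below 0.05 (limma) at 4 of the 6, beside 11.5% of all genes tested. Of 14 root markers 12 were tested, and 9 rose and 0 fell, beside 37.0% higher and 32.8% lower among all genes tested. Their median was 0.59, 0.55, 0.50 and 0.05 on arrays a to d and their summed intensity 1505 to 2347 in ron3 and 1305 to 1422 in Ler. In Ler 5 of the 12 were well above background on 0 arrays. All 5 are among the 9 rises and passed the filter through ron3 alone, so the count of rises is a description. PLT1 and PLT2 did not pass the filter. On array d, also the dimmest in Cy5, the root median was 0.05 and the histone median −0.47. The part of these markers in the histone result was not tested.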

How the data were processed

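Spot and background signals are the deposited median pixel intensity, from Agilent Feature Extraction 10.1.1.1 per the file headers. The deposited log10 ratio of Cy5 over Cy3 rests on intensities that this software had background-subtracted, detrended and dye-normalised. The authors' value table holds, on the log2 scale, the ratio of those intensities turned to ron3 over Ler; its processing is not stated. Deposited flags of another kind (other), 0 or 1 per spot, mark spots above background, outliers and saturation. The genome build is not given in the sources used here.

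Medians were corrected by normexp (offset 50) and normalised by loess within arrays, with controls at weight 0, in limma 3.58.1 (R 4.3.3). Levels per channel are after loess and Aquantile, and levels of different probes are not comparable. Of the gene spots 43 were flagged and left out, and 0 were saturated. Repeated spots were averaged. Genes were tested by their brightest probe if at least 2 arrays had it well above background in ron3 or in Ler and at least 3 had it unflagged. A linear model with a dye effect gave two-sided p-values, adjusted by Benjamini-Hochberg over all 19246 genes (2 residual and 2.45 prior degrees of freedom). The model was also run on simulated data with independent arrays, few changed genes and no dye effect. That run does not cover dye effects, RNA shared between arrays or changes at most genes. A 95% interval is that of the fit. The number of arrays limits the precision. Symbols come from the TAIR10.1 gene table, which holds one for 18 of the 38; the other histone genes are given by locus. Histone classes follow the list by which the genes were chosen.

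The members and lists were chosen with earlier results of these data known. Every histone gene may be named; outside them, RON3 and up to 4 called genes of each list with the smallest p. WUS, CLV3, PLT1 and PLT2, which were not tested, are named outside this rule. So are FAS2, MSI1, HIRA, NRP1, HTA12, RHL2, RHL1, CCS52A1 and SIM. The 14 alternatives changed the dye effect, background correction, normalisation, filter or probe averaging, averaged the arrays in pairs, or left out each array.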

Additional observations from a re-analysis of the deposited data

Results flagged for a closer look

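Among the 38 histone genes, 1 had an array far from the others: AT5G10390, an H3.1 gene, stood at −0.29 on array a, and its nearest other array at −0.33. The gap was 0.831 of the whole range, just past the critical value of Dixon's test for 4 arrays. Chance flags about 1 in 20 groups, and here the whole range was small, with an SD of 0.02.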

How the results depend on the processing

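Under the 14 alternatives 27 to 33 histone genes were lower and 2 or 3 higher, beside 31 and 3. Of 532 values of single genes under an alternative, 499 kept their sign and their side of the threshold, 21 lost the call, 4 gained it and 8 turned sign. Settings that changed only the dye effect, filter, probe averaging or pairing left the estimates of these genes unchanged, so no sign could turn there. The Feature Extraction and the authors' ratios gave the same estimates. The 532 values are therefore not independent checks. The turns were all at genes near 0 that had not passed. AT5G10980 stood at 0.034 with the log ratio of Feature Extraction and with the authors' values, at 0.0025 with median centring, and between −0.033 and 0.024 without 1 array (0.0074 without array b, 0.024 without array c). HTB4 stood at 0.079 with both deposited ratios and between −0.031 and 0.0046 without 1 array (0.0046 without array c). AT1G07660 and AT2G30620 lost their calls most often, under 9 and 6 alternatives. The cause was not tested. The dim probes of RAT5, HTB9 and AT5G02570 stood further below 0 with the deposited ratios. The fit used the ratio of ron3 to Ler within each array, so the genotypes were paired there. The 4 arrays form 1 group, so no paired comparison between groups of arrays was possible.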
